A study of Saccharomyces cerevisiae with 2 samples.

Results

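The 9 yeast genes described here encode the enzymes of lower glycolysis, from glyceraldehyde-3-phosphate dehydrogenase to pyruvate kinase. They are TDH1, TDH2, TDH3, PGK1, GPM1, ENO1, ENO2, CDC19 and PYK2, chosen by their systematic names from the tables of annotated coding sequences (CDSs), and all 9 were found among the 6666 CDSs listed. Both libraries are ribosome profiling libraries, in which mRNA fragments covered by ribosomes are sequenced, from replicates 1 and 2 of BY4742. BY4742 is a haploid alpha strain of Saccharomyces cerevisiae used in many laboratories, with deletions in HIS3, LEU2, LYS2 and URA3. Cells of both replicates were in mid-exponential growth in synthetic medium and received 50 µg/mL of cycloheximide, which stalls elongating ribosomes. The sources used here do not give the carbon source or say whether the replicates were separate cultures, so the spread between them may be technical. There is 1 group, so no condition was compared. Replicate 1 held 23437283 CDS reads and replicate 2 held 2733591. The strain markers went with the label: the deleted URA3, LEU2 and LYS2 had 0, 1 and 2 reads in replicate 1 and no read in replicate 2, while MF(ALPHA)1, an alpha pheromone gene, had 31310 and 2806 and STE2, the alpha-factor receptor gene of a cells, had 1 and 1. HIS3, which is deleted only in part, had 1046 and 116 reads.

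In lower glycolysis, triose phosphate is oxidised to pyruvate with a net gain of ATP and NADH. Glyceraldehyde-3-phosphate dehydrogenase (GAPDH, the TDH genes) makes bisphosphoglycerate and NADH, phosphoglycerate kinase (PGK1) transfers a phosphate to ADP, and phosphoglycerate mutase (GPM1) moves the remaining phosphate. Enolase (ENO1 and ENO2) then removes water to give phosphoenolpyruvate, and pyruvate kinase (CDC19, also called PYK1, and PYK2) makes pyruvate and ATP. In yeast several of these steps have isozymes with different regulation: ENO2 and CDC19 are known as the forms of growth on glucose, PYK2 is repressed by glucose, and TDH1 is known for its synthesis in cells that approach stationary phase. A footprint count reflects both the amount of an mRNA and how densely ribosomes occupy it, and these cannot be separated here because no RNA sequencing was analysed. In a bulk culture, fewer cells that express a gene and less RNA per cell cannot be told apart either.

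The isozymes of a family are close copies, and this bears on every count given for TDH and ENO genes. TDH2 and TDH3 have coding sequences of 999 nt that differ at 42 positions, in 33 codons, of which 21 encode the same amino acid in both genes, and their proteins of 332 residues differ at 12. TDH1 differs from TDH2 at 98 nt and 38 residues and from TDH3 at 111 nt and 39 residues. ENO1 and ENO2, of 1314 nt, differ at 68 nt and at 21 of 437 residues. CDC19 and PYK2 are more distant: their proteins of 500 and 506 residues were identical at 355 of 506 aligned positions, or 70.2%. The longest stretch without a difference between TDH2 and TDH3 is 173 nt long, and that between ENO1 and ENO2 is 112 nt long. Both are far longer than a ribosome footprint, so no read that lies inside them can be assigned to 1 of the genes. They are shown 5′ to 3′ on the coding strand, from the R64 reference sequence (sacCer3), at coding positions 355 to 527 of TDH2 (chrX:454155-454327, minus strand) and TDH3 (chrVII:883284-883456, minus strand) and 551 to 662 of ENO1 (chrVII:1001477-1001588, plus strand) and ENO2 (chrVIII:451877-451988, plus strand).
TDH2 and TDH3, shared: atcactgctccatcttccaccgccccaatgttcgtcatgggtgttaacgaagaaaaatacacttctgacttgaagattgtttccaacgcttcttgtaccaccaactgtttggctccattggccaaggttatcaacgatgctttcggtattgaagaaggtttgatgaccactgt
ENO1 and ENO2, shared: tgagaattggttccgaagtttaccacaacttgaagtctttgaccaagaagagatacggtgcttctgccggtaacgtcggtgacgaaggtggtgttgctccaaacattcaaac

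Other stretches tell the isozymes apart. Shown next are the 60-nt stretches, in steps of whole codons, in which TDH2 and TDH3 differ most, at 12 positions, and in which ENO1 and ENO2 differ most, at 13 positions; capitals mark bases that differ among the sequences of the set. The TDH stretch is at coding positions 64 to 123 and the ENO stretch at 340 to 399. The stretches are chrX:338334-338393 (plus strand) for TDH1, chrX:454559-454618 (minus strand) for TDH2, chrVII:883688-883747 (minus strand) for TDH3, chrVII:1001266-1001325 (plus strand) for ENO1 and chrVIII:451666-451725 (plus strand) for ENO2.
TDH1: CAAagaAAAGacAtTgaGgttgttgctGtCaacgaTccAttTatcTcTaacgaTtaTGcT
TDH2: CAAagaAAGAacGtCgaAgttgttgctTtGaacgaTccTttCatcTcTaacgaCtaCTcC
TDH3: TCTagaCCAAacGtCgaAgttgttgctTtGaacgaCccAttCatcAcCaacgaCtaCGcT
ENO1: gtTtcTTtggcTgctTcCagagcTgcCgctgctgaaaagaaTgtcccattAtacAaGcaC
ENO2: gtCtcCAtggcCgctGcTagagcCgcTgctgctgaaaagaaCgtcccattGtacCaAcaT

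**Figure D1:**
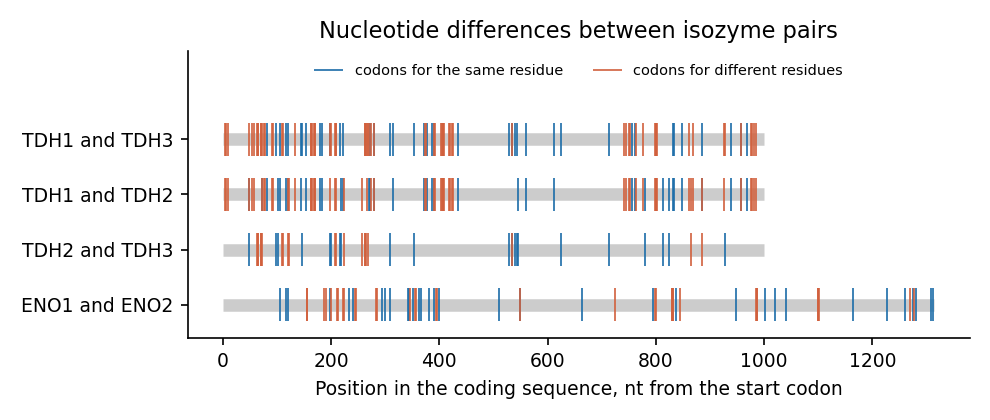
Positions at which isozyme pairs of equal length differ, in nt from the start codon (x axis), with 1 bar for each pair; blue ticks lie in codons for the same residue and orange ticks in codons for different residues. TDH2 and TDH3 have 28 of their 42 differences before the shared stretch at positions 355 to 527 and 14 after it, whereas TDH1 has 98 and 111 differences from them.

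To see how much of each gene can be told apart by a footprint of 28 nt, every 28-nt window of a coding sequence was looked up on both strands of the reference. In TDH2, 531 of 972 windows, or 54.6%, occur elsewhere in the genome, in TDH3 459, or 47.2%, and in TDH1 280, or 28.8%. In ENO1 and in ENO2 it is 546 of 1287 windows, or 42.4%. In PGK1, GPM1, CDC19 and PYK2 it is 0, so a perfectly matching read of that length has a single place in them. In the deposited counts, most CDSs made almost wholly of sequence that is not unique had no read. Of the 103 CDSs in which at least 99% of windows occur elsewhere, 3 had a read in replicate 1 (2.91%) and 2 in replicate 2 (1.94%), against 95.7% and 90.6% of the 5240 CDSs without such windows. The 3, named after their values were seen, are YLR154C-G with 77445 and 42170 reads and TAR1 with 9 and 2, which lie in the ribosomal DNA, and YHR213W with 1 and 0. Some of the 103 CDSs may have few footprints in any case. Whether reads with several places were dropped was not tested. An even split of reads between matching genes would, with reads spread evenly, leave ENO1 at least 21.2% of the enolase reads and TDH1 at least 6.96% of the TDH reads. The shares in the files were 2.37% and 0.277% in replicate 1. How evenly reads were spread along these genes was not tested. Since the treatment of reads with several places is not known, levels of TDH and ENO genes are given per kilobase of coding length. They are also given per kilobase of start positions of unique windows, which is the fitting length if all other reads were dropped.

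Per kilobase of coding length, levels of the 9 genes covered nearly 3 orders of magnitude, from ENO2 to PYK2. In replicate 1 the reads of the 9 genes summed to 7.10% of CDS reads (95% Wilson interval 7.09% to 7.11%). In replicate 2 the sum was 9.73% (9.69% to 9.76%). The mean share was 8.42% ± 1.86 (SD, n = 2). For comparison, the 8 genes of upper glycolysis took 3.52% and 3.96%. These and later intervals cover counting error only. For this sum they are narrower than the difference between the libraries.

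The GAPDH step was read mainly from TDH3, with TDH2 next and very little TDH1. TDH3 (YGR192C, chrVII:882812-883810, minus strand, a single exon like all 9) had 284031 and 44608 reads in replicates 1 and 2, which are 12119 and 16318 counts per 1000000 CDS reads (CPM). TDH2 (YJR009C, chrX:453683-454681, minus strand) had 112827 and 16579 reads, or 4814 and 6065 CPM. TDH1 (YJL052W, chrX:338271-339269, plus strand) had 1101 and 297 reads, or 47.0 and 109 CPM. The order TDH3, TDH2, TDH1 was the same in both libraries, and no 2 of the genes overlapped. TDH3 took 71.4% and 72.6% of the TDH reads, a mean of 72.0% ± 0.835 (SD, n = 2), and TDH2 28.4% and 26.96%, a mean of 27.7% ± 0.981. TDH1 took 0.277% (95% Wilson interval 0.261% to 0.293%) and 0.483% (0.431% to 0.541%), intervals that do not overlap. Per coding length TDH3 was 2.52-fold and 2.69-fold above TDH2, and 258-fold and 150-fold above TDH1. Per unique start position these folds were 2.16 and 2.31 above TDH2, and 348 and 203 above TDH1, so the order did not depend on the length used.

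PGK1 and GPM1 have no isozyme with that activity known to matter in growing yeast, and each step is read from this gene. PGK1 (YCR012W, chrIII:137746-138996, plus strand) had 213799 and 34195 reads, or 9122 and 12509 CPM, and a level per coding length of 8646 CPM per kb ± 1914 (SD, n = 2). GPM1 (YKL152C, chrXI:163642-164385, minus strand, the shortest of the 9 at 744 nt) had 83573 and 9965 reads, or 3566 and 3645 CPM. At 4846 CPM per kb ± 75.6 (SD, n = 2), it had the ratio between libraries closest to 1 after PYK2. GPM2 and GPM3, relatives of GPM1 for which no role in glycolysis is established, had 115 and 18 reads and 1351 and 94 reads. GPM3, with 50.5 CPM per kb ± 18.03, thus lay far below GPM1.

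Enolase was read almost wholly from ENO2. ENO2 (YHR174W, chrVIII:451327-452640, plus strand) had 775489 and 128133 reads, or 33088 and 46874 CPM. ENO1 (YGR254W, chrVII:1000927-1002240, plus strand) had 18811 and 3698 reads, or 803 and 1353 CPM. ENO1 was lower than ENO2 in both libraries and took 2.37% (95% Wilson interval 2.34% to 2.40%) and 2.81% (2.72% to 2.90%) of the enolase reads, a mean of 2.59% ± 0.309 (SD, n = 2). ENO2 was 41.2-fold and 34.6-fold above ENO1, and the same per unique start position, because both genes have 741 unique windows. ENO2 was the CDS with most reads per kilobase in replicate 1 and the second in replicate 2, behind YLR154C-G. ERR1, ERR2 and ERR3, enolase-related genes near chromosome ends, were listed at 0 in both libraries. All windows of ERR1 and ERR2 and 77.6% of those of ERR3 occur elsewhere. If reads with several places were dropped, which was not tested, a 0 for ERR1 and ERR2 says nothing of their translation.

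Pyruvate kinase was read from CDC19, with PYK2 the lowest of the 9 genes per kilobase of coding length in both libraries. By reads, TDH1 was lower than PYK2 in replicate 1, with 1101. CDC19 (YAL038W, chrI:71786-73288, plus strand) had 173839 and 28349 reads, or 7417 and 10371 CPM. PYK2 (YOR347C, chrXV:984942-986462, minus strand) had 1230 and 143 reads, or 52.5 and 52.3 CPM. CDC19 was 143-fold and 201-fold above PYK2 per coding length. PYK2 took 0.703% (95% Wilson interval 0.665% to 0.743%) and 0.502% (0.426% to 0.591%) of the pyruvate kinase reads. Since all windows of both genes are unique, this share does not depend on how reads with several places were treated. PYK2 was still read more than most genes: at 34.5 and 34.4 CPM per kb it stood above the median of the 5993 CDSs with a known length, 22.0 and 12.6 CPM per kb.

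**Figure D2:**
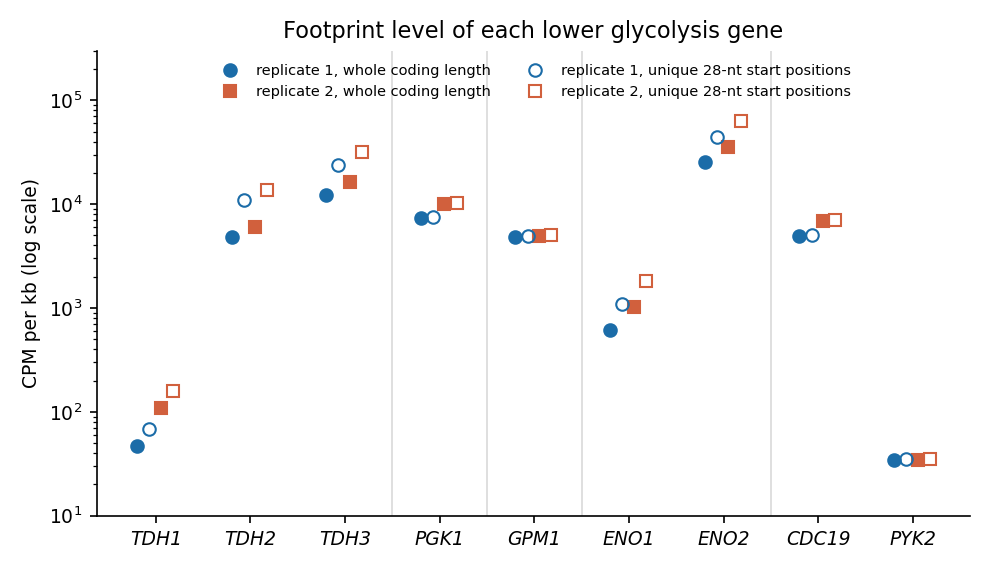
Level of each gene in CPM per kb (log scale) in replicate 1 (circles) and replicate 2 (squares), per coding length (filled) and per unique 28-nt start position (open). ENO2 is highest, with 25181 and 35672 CPM per kb of coding length, and PYK2 lowest, with 34.5 and 34.4; open and filled symbols nearly coincide in PGK1, GPM1, CDC19 and PYK2, which have no shared windows, and stand apart in TDH and ENO genes.

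Per kilobase of coding length the mean order was ENO2 (30427 CPM per kb ± 7419, SD, n = 2), TDH3 (14233 ± 2973), PGK1 (8646 ± 1914), CDC19 (5917 ± 1389), TDH2 (5445 ± 885), GPM1 (4846 ± 75.6), ENO1 (820 ± 296), TDH1 (77.9 ± 43.7) and PYK2. The libraries of ENO2 and TDH3, of TDH3 and PGK1, and of PGK1 and CDC19 did not overlap, nor did those of GPM1, ENO1, TDH1 and PYK2. The values of CDC19 and TDH2 overlapped across libraries, as did those of TDH2 and GPM1, although within each library the order held: CDC19 was 1.02-fold and 1.14-fold above TDH2, and TDH2 1.01-fold and 1.24-fold above GPM1. CDC19 and GPM1 were separated narrowly, at 4935 CPM per kb or more against 4900 or less. The levels of the TDH and ENO genes, and the place of TDH2, rest on the length used. Per kilobase of unique start positions ENO2 had 53955 CPM ± 13155 (SD, n = 2), TDH3 27717 ± 5789, TDH2 12334 ± 2006, ENO1 1454 ± 525 and TDH1 112 ± 63.02. On this length TDH2 had 10916 and 13753 CPM per kb in replicates 1 and 2 and in both libraries stood next below ENO2 and TDH3, above PGK1 with 7453 and 10220, 1.46-fold and 1.35-fold. Summed over isozymes per coding length, enolase had 31247 CPM per kb ± 7715, GAPDH 19756 ± 3902, phosphoglycerate kinase 8646 ± 1914, pyruvate kinase 5952 ± 1389 and phosphoglycerate mutase 4846 ± 75.6. This order of steps was the same in both libraries and per unique start position, where enolase had 55409 ± 13680 and GAPDH 40163 ± 7858. The GAPDH and enolase steps thus stood above the other lower steps on either length. Just before them in the pathway, aldolase (FBA1) had 20945 CPM per kb ± 2632 and triose phosphate isomerase (TPI1) 9021 ± 182.

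**Figure D3:**
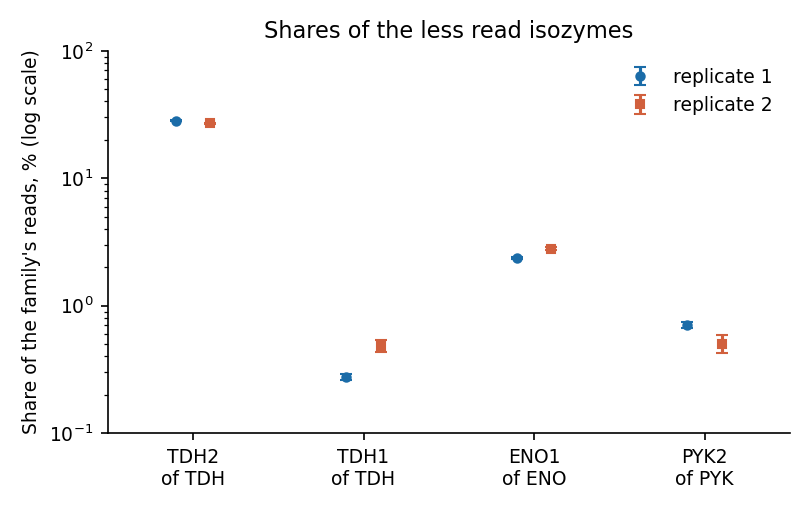
Share of a family's reads, in percent on a log scale, taken by TDH2, TDH1, ENO1 and PYK2 in replicate 1 (circles) and replicate 2 (squares), with 95% Wilson intervals. In replicates 1 and 2, TDH1 had 0.277% and 0.483%, ENO1 2.37% and 2.81%, and PYK2 0.703% and 0.502%, and none of these pairs of intervals overlap.

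The division of reads within a family needs no scaling between libraries, and it differed between them by more than counting error. The odds of a TDH read coming from TDH1 were 1.75-fold higher in replicate 2 than in replicate 1 (95% exact interval 1.53 to 1.99). TDH shares can also depend on read length. TDH1 and TDH3 have 624 and 394 unique windows at 20 nt, and 721 and 562 at 32 nt. Whether read lengths or mismatched reads bear on the TDH1 share was not tested. For ENO1 among enolase reads the odds ratio was 1.19 (1.15 to 1.23), and for PYK2 among pyruvate kinase reads it was 0.713 (0.595 to 0.849). TDH1 and ENO1 thus had larger shares in replicate 2 and PYK2 a smaller one. The shift between the main forms was smaller, with an odds ratio of 0.933 (0.915 to 0.951) for TDH2.

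Of the 9 genes, 7 were higher in replicate 2 per CDS read and none was lower. The split of reads was set against the CDS totals in an exact binomial test, two-sided, with Benjamini-Hochberg adjustment over the 5131 CDSs that had 10 reads or more on average. All 9 passed that minimum. The test compares these libraries, not conditions. Of all tested CDSs, 7.25% were higher in replicate 2 and 63.9% lower. The libraries differed in other ways too. Intergenic open reading frames held 4057 and 15116 reads in replicates 1 and 2, beside 23437283 and 2733591 CDS reads. YLR154C-G of the ribosomal DNA had 77445 and 42170 reads, which are 22029 and 102844 CPM per kb, so it was higher in replicate 2 per CDS read. Whether this bears on the ratios of the 9 genes was not tested. TDH1 had the largest ratio, 2.31-fold (95% exact interval 2.03 to 2.63, adjusted p = 8.49e-31), then ENO1 with 1.69-fold (1.63 to 1.75, adjusted p = 8.61e-163). ENO2 (1.42-fold), CDC19 (1.40-fold), PGK1 (1.37-fold) and TDH3 (1.35-fold) lay close together, with adjusted p below the smallest number the computation holds, and TDH2 had 1.26-fold (1.24 to 1.28, adjusted p = 1.50e-158). The genes that did not pass were GPM1, at 1.02-fold (1.00 to 1.04, adjusted p = 0.0526), and PYK2, at 0.997-fold (0.832 to 1.19, adjusted p = 1). The highest ratios were thus those of TDH1 and ENO1, less read isozymes, but PYK2, also a less read isozyme, had the lowest.

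The number of the 9 genes called higher depends on the reference point, but none was called lower under any scaling run. The median log2 ratio of all tested CDSs was -0.61 with a pseudocount of 1 CPM, and the 9 genes lay between 0.60 (PYK2) and 1.80 (TDH1) above it; 50.0% of CDSs lie above the median by construction. With edgeR's TMM scaling, which brings that median to -0.05, all 9 were higher in replicate 2, against 24.3% of CDSs, and with DESeq2's size factors all 9, against 25.7%. Called lower were 63.9% of CDSs by CDS totals, 20.1% with TMM and 946 of 5131 with DESeq2's size factors. With TMM and DESeq2's size factors, the lack of lower calls among 9 genes therefore says little. The ratios also move with level: the 180 tested CDSs with a mean of at least 1000 CPM had a median log2 ratio of 0.07, and the 9 genes one of 0.46, but TDH1 and PYK2 lie far below that level. Among CDSs at that level outside the gene lists, the nearest to the median of the 9 were URA2, of pyrimidine synthesis (log2 ratio 0.45), PIL1, an eisosome component (0.46), and HSP82, an Hsp90 chaperone (0.45). With 2 libraries, likeness in a single ratio is all that such a match can show.

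**Figure D4:**
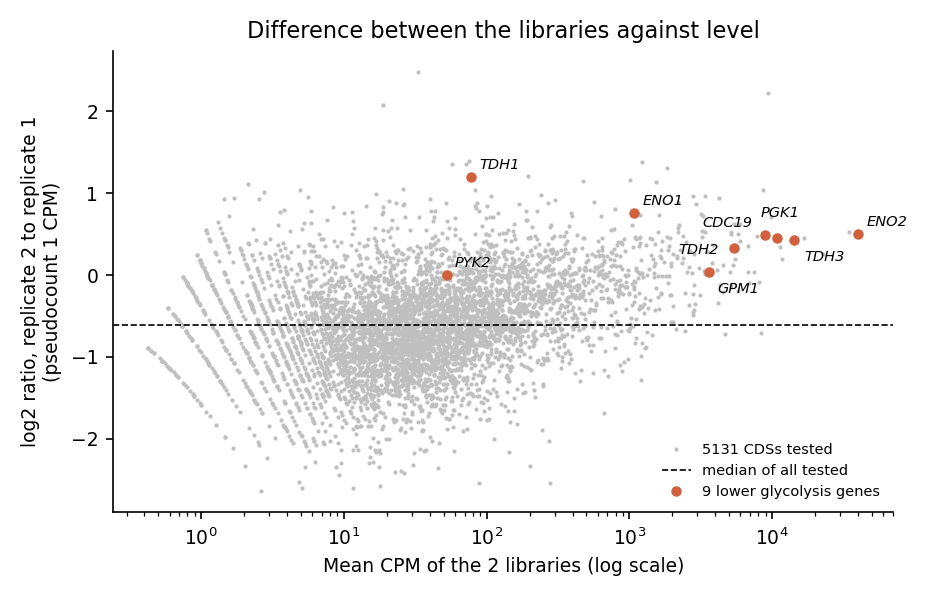
Log2 ratio of replicate 2 to replicate 1 (pseudocount 1 CPM) against mean CPM on a log scale, for the 5131 CDSs tested (grey) and the 9 genes (orange); the dashed line is the median of all tested, -0.61. All 9 genes lie above the line, TDH1 highest at 1.19, and PYK2 lies at 0.00.

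Other genes of the pathway were read as follows. Of the 8 genes of upper glycolysis, 5 were higher in replicate 2 and 1, PFK2 of phosphofructokinase, was lower, with a median log2 ratio of 0.10; of all tested CDSs 7.25% were higher and 63.9% lower. Under TMM all 8 were higher, against 24.3% of all CDSs, so the direction of PFK2 turned with the scaling. HXK1, a hexokinase that glucose represses, had the largest ratio of these, 0.76, with 2095 and 416 reads. HXK2, the hexokinase of growth on glucose, had 38493 and 5033. Of 8 genes of fermentation, 2 were higher, the main pyruvate decarboxylase gene PDC1 and the alcohol dehydrogenase gene ADH1, and ADH3 and ADH5 were lower; under TMM 4 were higher and 0 lower, against 24.3% and 20.1% of all CDSs. ADH2, the glucose-repressed alcohol dehydrogenase, had 62 and 9 reads. The gluconeogenesis genes FBP1 and PCK1, which glucose represses, had 5 and 1 reads and 12 and 2, too few to be tested. Per coding length, HXK1 had 82.8 CPM per kb ± 30.5 (SD, n = 2) and PYK2 34.4 ± 0.0783. ADH2 had 2.84 ± 0.437, PCK1 0.377 ± 0.0941 and FBP1 0.277 ± 0.103. Among these genes known to be repressed by glucose, HXK1 and PYK2 were thus read far more than the other 3.

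Of 4 regulators of glycolytic genes, 3 were lower in replicate 2 and none higher, close to the shares of all tested CDSs, 63.9% lower and 7.25% higher. TYE7, a helix-loop-helix activator of glycolytic genes, had 7559 and 311 reads, a log2 ratio of -1.50 (adjusted p = 1.16e-98 by the exact binomial test). GCR2, a partner of the activator Gcr1, had 789 and 42 reads and a log2 ratio of -1.08, and RAP1, a general activator that also binds telomeres, had 4071 and 398 and a log2 ratio of -0.25. GCR1 had 170 and 13 reads and did not pass (log2 ratio -0.52, adjusted p = 0.221). TYE7 and GCR2 were also below the median ratio of all CDSs, by 0.89 and 0.48 on the log2 scale. RAP1 lay above that median and its direction turned under TMM (log2 ratio 0.34); GCR2 was no longer called with DESeq2's size factors (adjusted p = 0.0555), and TYE7 was lower under every scaling run.

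Codon usage, which the choice of genes did not use, sets PYK2 apart from the other 8. The codon adaptation index measures how far a gene keeps to the codons preferred in a reference set, here 138 ribosomal protein genes, and has a maximum of 1. Among 5685 CDSs of at least 300 nt the median was 0.218. TDH3 had 0.923, the highest of all, TDH2 0.909, ENO2 0.898, CDC19 0.898, ENO1 0.888, TDH1 0.872, GPM1 0.837 and PGK1 0.836. These 8 genes were at or above percentile 99.26, whereas PYK2, at 0.196, was at percentile 29.4. TDH1 thus nearly shared the codon usage of TDH3 while its level per coding length was 258-fold and 150-fold lower. CDC19 and PYK2 differed in both codon usage and level.

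**Figure D5:**
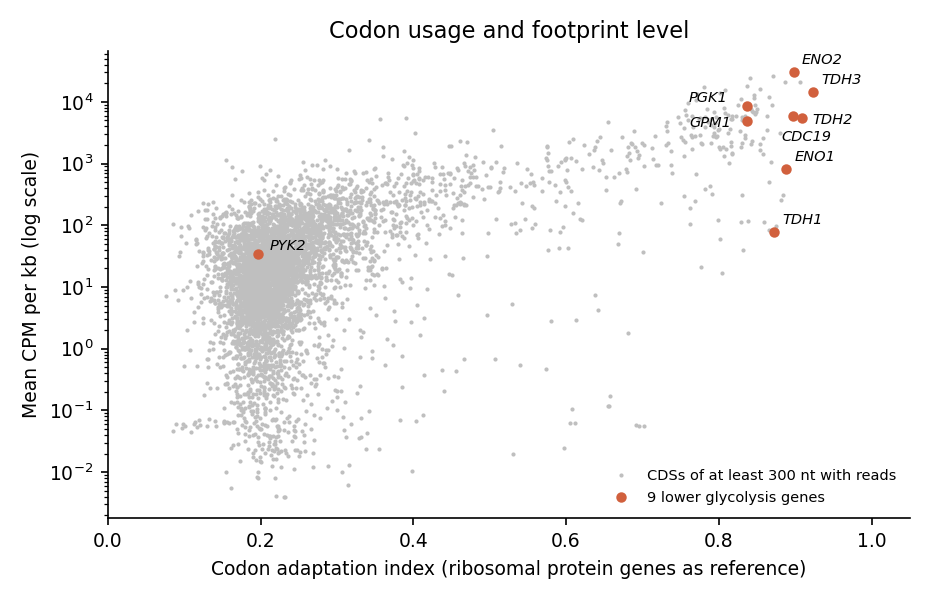
Mean CPM per kb on a log scale against the codon adaptation index, for CDSs of at least 300 nt with reads (grey) and the 9 genes (orange). TDH1, at 0.872 with 77.9 CPM per kb, lies far below TDH3, at 0.923 with 14233, and PYK2, at 0.196, lies among the bulk of CDSs.

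Intergenic open reading frames (IGORFs) beside these genes held few reads, as IGORFs did in general. Within 200 nt of the 9 genes lie 86 IGORFs on either strand, which in sum held 2 and 6 reads in replicates 1 and 2. Per 100 IGORFs this is 2.33 and 6.98 reads, against 5.14 and 19.1 over all 78989 IGORFs. Replicate 2 had more IGORF reads in all, 15116 against 4057, although it had fewer CDS reads. The 9 genes themselves had 1664700 and 265967 reads. On the strand of the gene, 27 IGORFs upstream had 1 and 4 reads and 17 downstream had 0 in both libraries, a count that allows up to 3 reads in each. The reads upstream fell in 4 IGORFs: chrIII:137658-137741, which ends 4 nt before PGK1 and had 1 read in each library, chrVII:1000840-1000920 and chrVII:1000703-1000789 before ENO1 and chrX:338128-338214 before TDH1, with 1 read each in replicate 2. Such single reads do not set one of these genes apart from another.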

How the data were processed

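Ribosome footprints of 2 replicate libraries of BY4742 were analysed. Per the file headers, the authors deposited a read count for each CDS and IGORF, without normalization. The submitters' processing notes name Cutadapt, Bowtie, SAMtools and the build sacCer3, with no version; the counter and the treatment of reads with several positions are not given. All 6666 CDSs entered the totals; lengths and positions of 5993 came from the R64 annotation (sacCer3). The stop codon ends all 78989 IGORFs in that sequence.

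CPM values were computed over the CDS total, in which 1 read is 0.0427 CPM in replicate 1 and 0.366 CPM in replicate 2. Differences between libraries were tested on the counts with a two-sided exact binomial test, Benjamini-Hochberg adjusted, at 0.05. On simulated counts with counting error only, this test recovered 58% of 200 CDSs changed 1.5-fold, 81% at 2-fold and 94.5% at 4-fold. The simulation held no other spread between libraries, so it does not cover the wider differences seen between these libraries. Shares have 95% Wilson intervals. Shared windows and codon usage came from the reference. Alternatives changed the scaling, minimum count, pseudocount, window, codon reference, distance and libraries used.

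The members, gene lists and tests were chosen with earlier results of these data known; the window classes of all CDSs were added later. Genes named were the 9, those of the lists, and the 3 CDSs of at least 1000 CPM nearest in ratio. Tools were Python 3.11.15, numpy 2.4.6, scipy 1.17.1, pandas 2.3.3, Biopython 1.88, R 4.3.3, edgeR 4.0.16 and DESeq2 1.42.0.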

Additional observations from a re-analysis of the deposited data

How the results depend on the processing

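The share of TDH3 among TDH reads was 68.9% per unique 28-nt start position in place of 72.0%, a move larger than the spread between libraries. On the same length the levels per kb of ENO2, ENO1, TDH3 and TDH2 were 53955, 1454, 27717 and 12334 CPM in place of 30427, 820, 14233 and 5445. Undoing an even split of shared windows, an alternative chosen after seeing the data, gave no valid share for TDH or ENO genes, because it left a negative count. Which treatment the counts had was not tested. The log2 ratio of PYK2 turned from 0.00 to 0.58 with TMM scaling and 0.61 with DESeq2's size factors. With these scalings 2279 and 2263 CDSs differed in place of 3652, 1248 and 1317 higher in place of 372, and 1031 and 946 lower in place of 3280; the minimum count moved none of these by over 1.5 times. Without replicate 1 or replicate 2 the share of CDS reads in the 9 genes was 9.73% or 7.10%, and a ratio between libraries cannot be had. Windows of 20 and 32 nt put 65.2% and 49.2% of TDH2 and 53.3% and 37.6% of ENO1 elsewhere in the genome. The 50 other CDSs with most reads per kb as codon reference put PYK2 at percentile 27.7. No paired analysis was possible because there is 1 group. Depth limits statements on IGORFs and on FBP1, PCK1 and PDC6.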
